A study of Mus musculus with 2 samples.

Results

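MicroRNA genes best known from liver, endocrine pancreas, gut, kidney and covering epithelia were examined in mouse calf muscle. They were the 9 genes Mir122, Mir192, Mir194-1, Mir194-2, Mir375, Mir200c, Mir141, Mir203 and Mir205, chosen by symbol in the GENCODE M21 annotation, of 2202 microRNA genes counted. Small RNA had been sequenced from the gastrocnemius of B6CASTF1/J females, a first-generation cross, at 36 days of age. There was 1 group, with no treatment or mutation named, and 2 libraries, labelled as biological replicates 1 and 2. The 2 records name separate females but carry a single donor identifier. That they are 2 animals rests on the replicate labels, so a spread between them may be biological, technical or both.

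MicroRNAs are cut from hairpin transcripts and pair with messenger RNAs mainly through their seed, which is the stretch from base 2 to base 8. miR-122 is the dominant microRNA of hepatocytes. miR-192 and miR-194 are made together in the epithelium of the intestine and kidney and in the liver, and miR-375 is known from pancreatic islets, where it restrains insulin secretion, and from other neuroendocrine cells. miR-200c and miR-141 belong to the miR-200 family, which holds cells in the epithelial state by repressing Zeb1 and Zeb2. miR-203 promotes differentiation in the upper layers of the skin, and miR-205 is typical of the basal layer of stratified epithelia. None of them is known as a marker of muscle fibres.

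The mature sequences show which of these genes can be told apart by their reads, and for that reason they are given here. They were taken from RefSeq on GRCm38.p6, the assembly of the mm10 build. This source held a mature entry for 8 of the 9 genes, all but Mir122. For Mir375 it held the 5p arm only, so the 3p arm is not marked in the hairpin given below. Each mature sequence is written 5′ to 3′ with its seed in capitals. The first 5 are the miR-200 family, which falls into 2 seed groups:
miR-200c-3p: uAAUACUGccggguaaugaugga
miR-200b-3p: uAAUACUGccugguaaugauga
miR-429-3p: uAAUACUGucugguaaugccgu
miR-141-3p: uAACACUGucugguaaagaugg
miR-200a-3p: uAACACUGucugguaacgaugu

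Counted from 1 at the 5′ end, miR-200c-3p and miR-141-3p differ at 4 of the first 22 bases (U4C, C9U, G11U and U17A), and only U4C lies in the seed. The gut and kidney microRNAs follow, with miR-215 as the seed partner of miR-192 and with both 3p arms of the miR-194 genes, the arms by which these genes differ:
miR-192-5p: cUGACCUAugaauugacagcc
miR-215-5p: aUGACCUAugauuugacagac
miR-194-5p: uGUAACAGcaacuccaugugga
miR-194-1-3p: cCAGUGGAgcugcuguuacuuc
miR-194-2-3p: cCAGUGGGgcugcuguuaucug

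miR-192-5p and miR-215-5p share their seed and 18 of 21 bases (C1A, A12U and C20A). The whole of miR-194-5p stands in the hairpins of both Mir194-1 and Mir194-2, whereas their 3p arms differ at 4 bases (A8G, C19U, U20C and C22G). The skin microRNAs have seeds that no other mature microRNA of the table carries, and Mir375 is shown as its hairpin with the 5p arm, bases 5 to 26, in capitals:
miR-203-3p: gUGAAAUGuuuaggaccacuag
miR-205-5p: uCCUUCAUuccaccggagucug
Mir375 hairpin: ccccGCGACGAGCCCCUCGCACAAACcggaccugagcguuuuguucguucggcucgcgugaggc

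The counts are raw reads per hairpin gene on the strand of the gene, and reads of both arms are counted together. A read that fits several places in the genome is counted for no gene. Mir194-1 and Mir194-2 share a run of 22 bases and their 5p reads would be lost in that way, so their counts say little about miR-194-5p. The next longest run that any of the 9 hairpins shared with another of the 2202 was 17 bases, between Mir141 and Mir200a. For Mir375 it was 10 bases and for Mir203 11 bases, both shorter than a mature microRNA.

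Replicate 1 had 1593787 gene-assigned reads and replicate 2 had 2078101. A count of 0 allows up to 3 reads, or 1.88 counts per 1000000 gene-assigned reads (CPM) in replicate 1 and 1.44 CPM in replicate 2. A gene with at least 10 reads in both libraries was taken as detected, which 273 genes were. Intervals and limits cover counting error only, since PCR copies of a molecule cannot be recognised. Levels of different genes are read counts, also shaped by how well adapters join to each sequence, and mature microRNAs are close to equal in length, so no correction for length was made. The skeletal muscle gene Mir206 fitted the tissue label, with 32871 and 139295 reads in replicates 1 and 2. Of the other listed muscle genes, Mir486 had 1549 and 2431 reads, Mir499 had 86 and 1527, and Mir133b had 26 and 34. By its uniquely placed reads Mir133b ranked 243 and 239 among all genes, below Mir122 and Mir203 in both libraries. Reads that fit several places are in none of these counts. How many each muscle gene lost in that way was not tested, so this rank need not be that of the mature microRNA. The most abundant gene, Mir378a, had 277206 and 299706 reads.

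The 9 genes had 821 reads in replicate 1 and 937 in replicate 2. That was 0.0515% of gene-assigned reads (exact 95% interval 0.0480 to 0.0552) and 0.0451% (0.0422 to 0.0481), or 0.0483% ± 0.00454 (SD, n = 2). Each gene had a read in at least 1 library, 7 were detected, and the same 7 stood above the limit of 3 reads in both. The levels were far from even. Mir122 and Mir203 took 82.6% of these reads in replicate 1 and 64.9% in replicate 2.

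**Figure D1:**
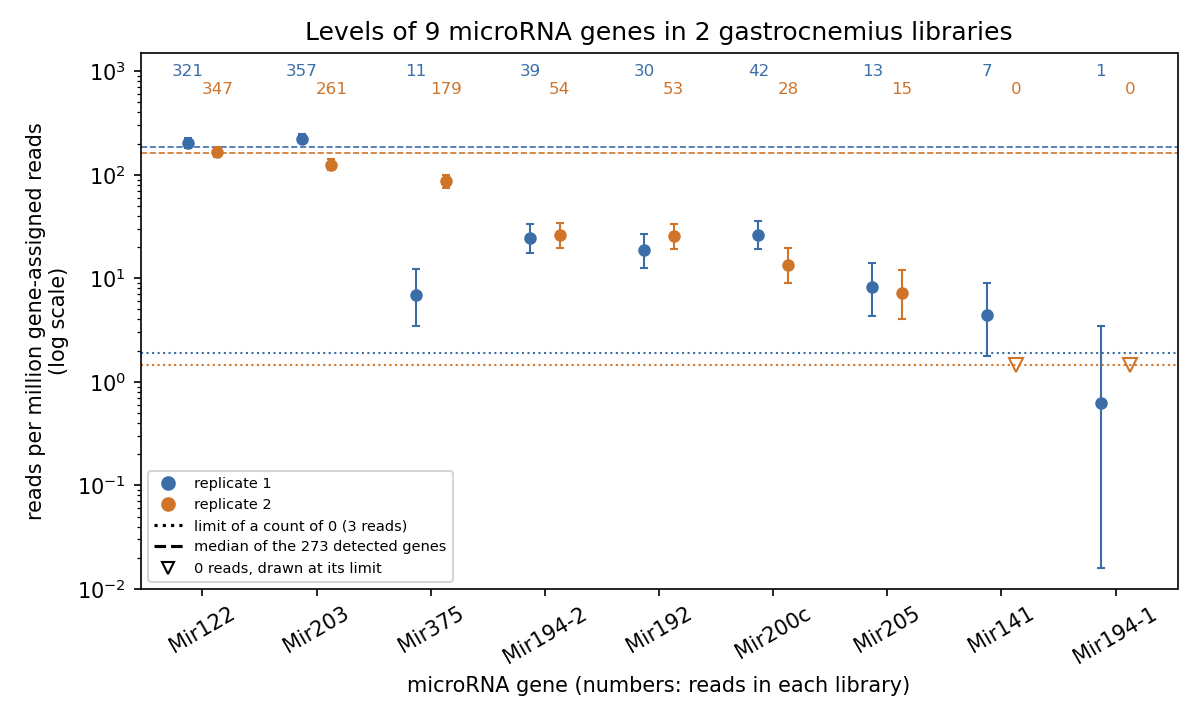
Level of each gene in each library in CPM on a log axis, with exact 95% counting intervals, and the number of reads printed above. Mir122 and Mir203 lie near the dashed median of the 273 detected genes, Mir194-1 lies at or under the dotted limit of a count of 0, and of the 7 detected genes Mir375 has its 2 libraries farthest apart.

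Mir122, the hepatocyte gene, had 321 reads in replicate 1 and 347 in replicate 2. This was 201 CPM (interval 180 to 225) and 167 CPM (150 to 186), with a mean of 184 ± 24.3 CPM (SD, n = 2). Both counts were over 100 times the limit of 3 reads, at 107 and 116 times. The median detected gene had 293 and 339 reads, so Mir122 stood at the middle of the detected microRNAs, and "trace" describes its share of all reads and not its rank, which was 132 of 2202 by mean CPM. For each read of Mir122 there were 102 reads of Mir206 in replicate 1 and 401 in replicate 2. The gene lies on chromosome 18, 65248861 to 65248926 (mm10, plus strand), within an exon of the long noncoding RNA AC157910.3. Its hairpin shared no run of more than 12 bases with another.

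The gut and kidney genes had far fewer reads than Mir122. Mir192 had 30 and 53 reads, or 18.8 CPM (12.7 to 26.9) and 25.5 CPM (19.1 to 33.4). Mir194-2 had 39 and 54 reads, or 24.5 CPM (17.4 to 33.5) and 26.0 CPM (19.5 to 33.9). Both stood at 10 or more times the limit in both libraries, and their values overlapped. They are neighbours on the plus strand of chromosome 19, with Mir194-2 at 6264643 to 6264728 and Mir192 at 6264844 to 6264932. No other gene is annotated over them, and Atg2a, the nearest protein-coding gene, is 2308 bases from Mir194-2.

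Mir194-1 is the copy on chromosome 1 (185313319 to 185313385, plus strand), in an intron of the noncoding gene 2010103J01Rik and opposite an intron of Iars2. It had 1 read in replicate 1 and 0 in replicate 2, within the limit of 3 reads in both. Its cluster neighbour Mir215, 195 bases away, had 3 and 5 reads. Uniquely placed reads were therefore nearly all at the chromosome 19 cluster: the copies split 1 to 39 in replicate 1 and 0 to 54 in replicate 2, so that Mir194-1 held 2.50% (exact interval 0.0633 to 13.2) and 0% (0 to 6.60). This applies to reads of the differing parts, since miR-194-5p itself matches both places.

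Mir375, the islet gene, had 11 reads in replicate 1 and 179 in replicate 2. These were 6.90 CPM (3.45 to 12.3) and 86.1 CPM (74.0 to 99.7), with a mean of 46.5 ± 56.0 CPM. The lower count stood 3.67 times above the limit of 3 reads and the higher 59.7 times, and the intervals were far apart. Its rank among all genes was 275 in replicate 1 and 170 in replicate 2. The gene lies on chromosome 1, 74900658 to 74900721 (minus strand), in no other annotated gene, 1350 bases from Cfap65 and 7515 from the crystallin gene Cryba2.

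Of the epithelial genes, Mir203 was the most abundant, with 357 reads in replicate 1 and 261 in replicate 2. Its level was 224 CPM (201 to 248) and 126 CPM (111 to 142), intervals that did not overlap. It lies on chromosome 12, 112130880 to 112130955 (plus strand), outside other genes and 3321 bases from Aspg. Mir205, of the basal layer, had only 13 and 15 reads, or 8.16 CPM (4.34 to 13.9) and 7.22 CPM (4.04 to 11.9), close to equal in both libraries. It lies on chromosome 1, 193507463 to 193507530 (minus strand), in an exon of the noncoding RNA 4631405K08Rik and 137165 bases from the nearest protein-coding gene, Camk1g.

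Mir200c had 42 reads in replicate 1 and 28 in replicate 2, or 26.4 CPM (19.0 to 35.6) and 13.5 CPM (8.95 to 19.5). Mir141, on the same strand 336 bases away, had 7 and 0 reads. Its 4.39 CPM in replicate 1 (1.77 to 9.05) stood just above the limit of 1.88 CPM, and in replicate 2 a level of up to 1.44 CPM could not be seen. Both genes lie in an intron of Gm15884 on the minus strand of chromosome 6, Mir200c at 124718322 to 124718390 and Mir141 at 124717914 to 124717985. Mir141 also overlaps an exon of Gm29008, a transcript model of uncertain status on the same strand.

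By mean CPM the order was Mir122 (184 ± 24.3), Mir203 (175 ± 69.6), Mir375 (46.5 ± 56.0), Mir194-2 (25.2 ± 1.07), Mir192 (22.2 ± 4.72), Mir200c (19.9 ± 9.11), Mir205 (7.69 ± 0.664), Mir141 (2.20 ± 3.11) and Mir194-1 (0.314 ± 0.444), each with its SD over 2 libraries. Few steps in this order exceeded the spread. The values of neighbours overlapped between Mir122 and Mir203, between Mir375 and Mir194-2, along Mir194-2, Mir192 and Mir200c, and between Mir141 and Mir194-1. No such overlap was found at 3 steps: Mir203 stood above Mir375, Mir200c above Mir205 and Mir205 above Mir141 in both libraries. For Mir200c and Mir205 the counting intervals nevertheless overlapped in replicate 2, and for Mir205 and Mir141 they did so in replicate 1. Mir122 and Mir203 changed places, with Mir203 ahead in replicate 1, where their counting intervals overlapped, and Mir122 in replicate 2, where they did not.

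**Figure D2:**
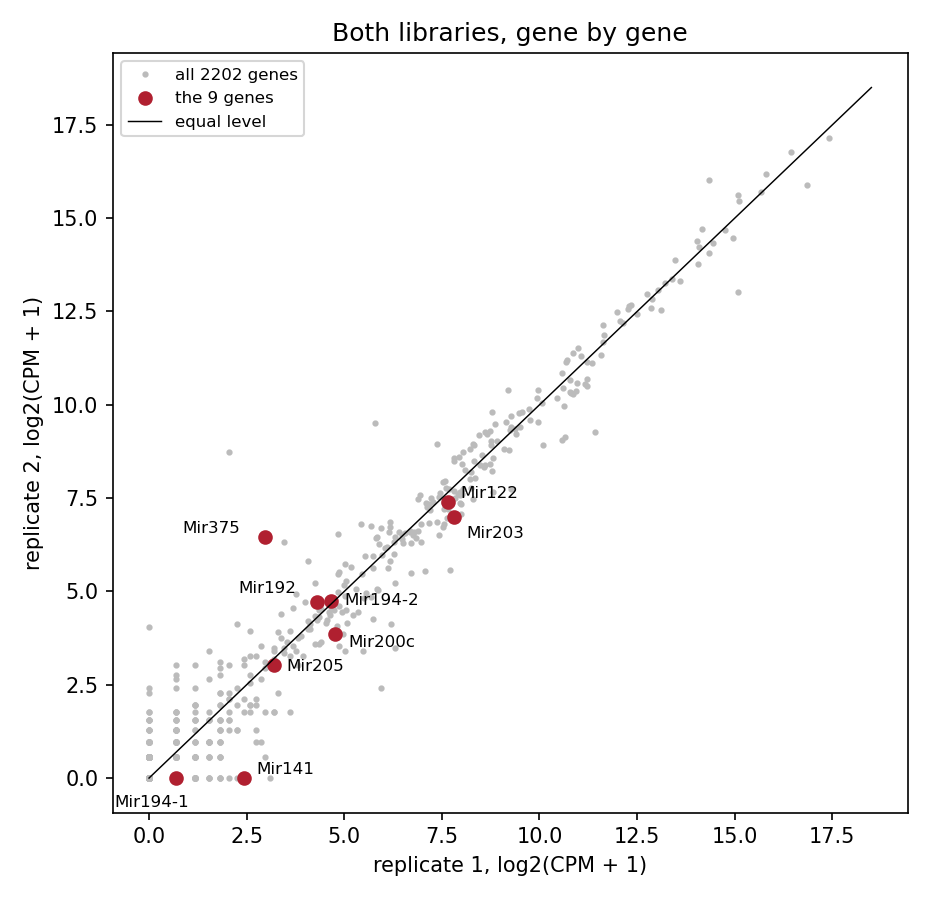
Each gene's level in replicate 1 against replicate 2 as log2(CPM + 1), with all 2202 genes in grey and the 9 genes in red. Mir122, Mir192, Mir194-2 and Mir205 lie along the line of equal level, Mir375 lies well above it, and Mir203, Mir200c and Mir141 lie below.

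The genes most like each detected member were sought by the distance between their levels on the log2(CPM + 1) scale over the 2 libraries. Mir125b-1 (309 and 346 reads), whose mature form has a second locus, and Mir25 (319 and 365) were nearest to Mir122, at distances of 0.05 and 0.07. Mir203 had Mir376b (0.19) and Mir18 (0.20) beside it, and Mir200c had Mir331 (0.10) and Mir770 (0.19). For Mir192 they were Mir20b (0.22) and Mir7j (0.23), for Mir194-2 Mir668 (0.10) and Mir370 (0.11), and for Mir205 Mir326 (0.16) and Mir1291 (0.23). Mir375 had no close companion. Gm26117, with 16 and 165 reads, was 0.50 away and Mir190b, with 25 and 114, was 1.25 away. With 2 libraries such a likeness says only that the counts were alike.

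The libraries were then set against each other. A two-sided exact binomial test asked whether a gene's reads split between the libraries in proportion to their TMM-scaled sizes, and p-values were adjusted by Benjamini-Hochberg over the 273 detected genes. It compares these 2 libraries and has no replicate check. By this measure the libraries differed at most genes: 172 of 273, or 63.0%, were called at an adjusted p under 0.05, with 33.3% higher and 29.7% lower in replicate 2. Of the 7 detected members, 3 (42.9%) were called, 1 higher and 2 lower. Their median log2 ratio of replicate 2 over replicate 1 was -0.11, against 0.02 for all tested genes, and their median absolute log2 ratio was 0.51, against 0.36. Only 2 members stood at or above the median detected gene by mean CPM. At low counts, counting error spreads ratios more and fewer genes can be called. Its part in these gaps was not tested. In bulk tissue, fewer cells of a type and less RNA per cell cannot be told apart.

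Mir375 was 13.1-fold higher in replicate 2 (exact 95% interval 7.13 to 26.7, binomial adjusted p = 5.56e-32). An alternative was the exact test of edgeR at the dispersion common to all genes, a coefficient of variation of 0.335 estimated from these same 2 libraries. It called 1.47% of the 273 genes. Mir375 was among them (edgeR adjusted p = 0.00277, the highest over its alternatives, whose lowest was 5.56e-32), and no other member was. The muscle gene Mir499 was also called, with a larger ratio than Mir375: it was 14.3-fold higher in replicate 2 (11.5 to 17.9, edgeR adjusted p = 0.000309). The other listed endocrine and pancreatic genes had these counts. Mir7-1, a microRNA of islet and neuroendocrine cells, had 109 and 100 reads and was 1.36-fold lower in replicate 2 (binomial adjusted p = 0.0488), a call that was lost with edgeR at the common dispersion (edgeR adjusted p = 1, unadjusted 0.557). Mir7-2, a second locus of the same mature microRNA, had 4 and 1 reads and Mir7b had 4 and 14. Reads of the mature form that Mir7-1 and Mir7-2 share would fit both places and be counted for neither, so their counts say little about it. Mir217, of the exocrine pancreas, had 8 and 10 reads, and its neighbours Mir216a and Mir216b had at most 1 read in each library. The 3 listed genes of the pancreas other than Mir375 thus summed to 10 and 11 reads, and none was detected.

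Mir203 was 1.70-fold lower in replicate 2 (1.45 to 2.00, binomial adjusted p = 1.86e-10) and Mir200c was 1.87-fold lower (1.13 to 3.13, adjusted p = 0.0202). Neither passed edgeR at the common dispersion (edgeR adjusted p = 1 for both, unadjusted 0.282 and 0.269), while every other alternative that tested them called them, with adjusted p-values of at most 3.73e-10 and 0.0373. Mir205 had a fold of 0.927 in replicate 2 (0.411 to 2.12, binomial adjusted p = 0.922), an interval wide enough to hold the ratios of Mir203 and Mir200c. Mir141 had too few reads for the test. When every gene with a read was tested with the same scaling, an alternative setting, the upper end of the interval of its fold in replicate 2 was 0.557 and it was called lower (binomial adjusted p = 0.0132). The edgeR test at the common dispersion covered detected genes only and was not run on Mir141.

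The liver, gut and kidney genes were not called. Mir122 had a fold of 0.868 in replicate 2 (0.744 to 1.01, binomial adjusted p = 0.111), and this call turned on the scaling: with library totals in place of TMM factors the adjusted p was 0.0290 and with TMM factors from all genes 0.0211, the lowest over the alternatives, whose highest was 1. Mir192 had a fold of 1.42 (0.891 to 2.30, adjusted p = 0.213) and Mir194-2 a fold of 1.11 (0.723 to 1.72, adjusted p = 0.767). An interval of this width still allows Mir192 to be over 2-fold higher.

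**Figure D3:**
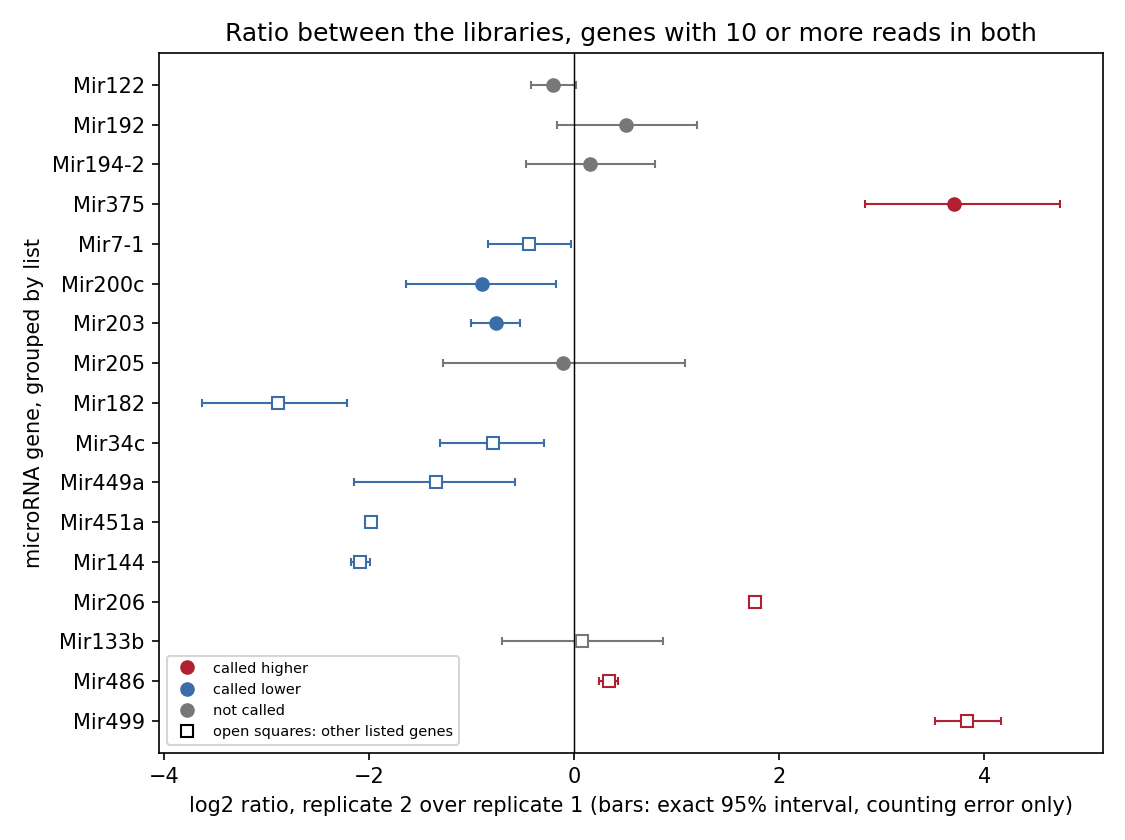
Log2 ratio of replicate 2 over replicate 1, with exact 95% intervals, for the detected members (filled circles) and the other detected genes of the lists (open squares), red where called higher, blue where called lower and grey where not called. Mir375 and the muscle gene Mir499 are farthest to the right. Mir203 and Mir200c are to the left with Mir182, Mir34c, Mir449a, Mir7-1 and the erythroid genes Mir451a and Mir144. The intervals of Mir122, Mir192, Mir194-2 and Mir205 span 0.

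The rest of the miR-200 family was rarer than Mir200c. Mir429 had 18 reads in replicate 1 and 5 in replicate 2, Mir200b had 6 and 3, and Mir200a had 4 and 3. All 5 family genes had a lower scaled value in replicate 2, but only Mir200c was detected. With every gene with a read tested, Mir429 was called lower (binomial adjusted p = 0.00524), while Mir200b (adjusted p = 0.424) and Mir200a (0.945) were not. The edgeR test at the common dispersion was not run on Mir429, Mir200b or Mir200a. The family summed to 77 and 39 reads, 2.46-fold lower in replicate 2 (counting interval 1.65 to 3.71). By seed, the 3 genes with AAUACUG, the seed of miR-200c-3p, summed to 66 and 36 reads. The 2 with AACACUG, the seed of miR-141-3p, summed to 11 and 3. For Mir192 and its seed partner Mir215 the sum was 33 and 58.

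Ratios within a cluster do not depend on how the libraries are scaled. Mir200c made up 85.7% of the reads of its pair with Mir141 in replicate 1 (exact interval 72.8 to 94.1) and 100% in replicate 2 (87.7 to 100), intervals that overlapped. Mir192 made up 43.5% of its pair with Mir194-2 in replicate 1 (31.6 to 56.0) and 49.5% in replicate 2 (39.7 to 59.4), with an odds ratio between the libraries of 1.27 (0.665 to 2.46). For Mir200c and Mir141 the interval of the odds ratio began at 0.874 and had no upper end, because Mir141 had 0 reads in replicate 2. Both odds-ratio intervals held 1, which at this depth does not show that the ratios were equal.

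The detected genes of the lists for other epithelia were all called lower by the binomial test. This is to be read against the 29.7% of all tested genes that were called lower. Mir182, of a cluster active in sensory and glandular epithelium, had 125 reads in replicate 1 and 21 in replicate 2 and was 7.41-fold lower (binomial adjusted p = 5.61e-24), and it was called at the common dispersion as well (edgeR adjusted p = 0.0296). Its neighbours Mir183 (96 and 9 reads) and Mir96 (12 and 0) were under the minimum in replicate 2, and the 3 genes summed to 233 and 30 reads. With every gene with a read tested and the same scaling, Mir183 and Mir96 were called lower (binomial adjusted p = 3.13e-23 and 0.000288). The edgeR test at the common dispersion covered detected genes only and was not run on Mir183 or Mir96. Of the 5 listed genes of ciliated epithelium, Mir34c (81 and 58 reads) was 1.74-fold lower and Mir449a (45 and 22) was 2.55-fold lower, with binomial adjusted p-values of 0.00308 and 0.000663. Both calls were lost with edgeR at the common dispersion (edgeR adjusted p = 1 for both, unadjusted 0.3 and 0.11). Mir34b had 4 and 6 reads, Mir449c had 0 and 1, and Mir449b had none, which brought the list to 130 and 87 reads. Neither Mir34b nor Mir449c was called when every gene with a read was tested. Of this list 2 genes had a lower and 2 a higher scaled value in replicate 2. The erythroid genes Mir451a (55120 and 17377 reads) and Mir144 (4404 and 1289) were called lower by the binomial test, and the muscle genes Mir206, Mir486 and Mir499 were called higher. At the common dispersion only Mir499 of these 5 was called. The part of these differences in the ratios of Mir203, Mir200c and Mir375 was not tested.

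**Figure D4:**
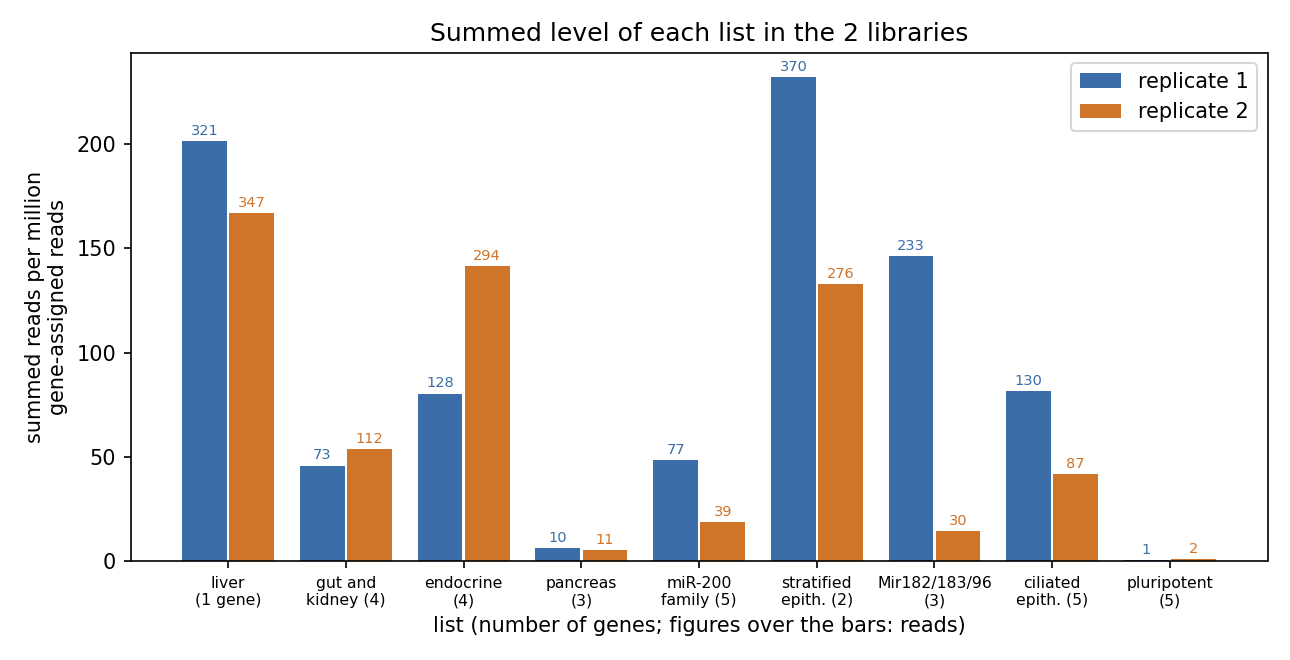
Summed level of each list in CPM, with reads printed over the bars. The miR-200, stratified, Mir182, Mir183 and Mir96, and ciliated lists are lower in replicate 2, the endocrine list is higher because of Mir375, and the pancreas and pluripotent lists are near 0 in both.

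Genes of pluripotent cells served as a point of reference for near absence. Of Mir302a, Mir302b, Mir302c, Mir302d and Mir367, 3 had no read in either library and the others had at most 1 in each. Among all 2202 genes, 1723 had no read in replicate 1 and 1706 in replicate 2, and a further 142 and 148 had 1 to 3 reads. By uniquely placed reads Mir194-1 belonged with these in both libraries. Mir141 did so in replicate 2 only, and the other 7 members stood apart from them. For Mir194-1 this does not show near absence. Reads of the mature form that it shares with Mir194-2 would fit both places and be counted for neither.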

How the data were processed

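The authors deposited a table of raw read counts per microRNA gene for each library, on the mm10 build with M21 genes, as its deposited read-me text states. The aligner was not given in the sources used here, nor was the counter. The tables have no header, and from their layout and values the third column was read as counts on the strand of the gene. The 4 summary rows, among them multiply matched reads (75.4% and 77.6% of reads in replicates 1 and 2), stayed out of totals and tests.

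All 2202 identifiers were matched to M21 symbols, and sequences came from RefSeq and from the M21 transcripts. CPM and exact (Clopper-Pearson) 95% intervals were computed with scipy 1.17.1. TMM factors came from the 273 detected genes (edgeR 4.0.16, R 4.3.3), a choice made after the results with factors from all genes had also been seen. Comparing 2 single libraries leaves no residual degrees of freedom for a model, so exact binomial tests were used. They were tested on simulated counts that held counting error only, apart from folds set for some genes. That setting leaves out the variation between libraries that the common dispersion includes. Alternatives were other scalings (DESeq2 1.42.0 size factors among them), read minimums, strand handling and the common dispersion.

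The members and lists were chosen with earlier results of these data known. By rule, the genes named were all members, the listed genes with a read, the 2 genes nearest to each detected member and the most abundant gene. Listed genes with no read and Mir675 were named after their values were seen.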

Additional observations from a re-analysis of the deposited data

Results flagged for a closer look

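Reads on the opposite strand were not used for any level, and some lay at 2 of the members above the 3 reads that a count of 0 allows. Mir203 had 8 such reads in replicate 1 and 4 in replicate 2, or 2.24 and 1.53 for each 100 reads on its own strand. Mir122 had 1 in replicate 1 and 8 in replicate 2, or 0.312 and 2.31 for each 100. No microRNA gene is annotated on the other strand of any of the 9 members. At all 2138 genes without such a partner there were only 26 and 39 opposite reads, spread over 20 genes. Mir203 held the most of them with 12 over both libraries, ahead of Mir675 with 11 and Mir122 with 9.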

How the results depend on the processing

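Of 51 ratios of members under the alternatives, 46 kept their direction and their side of the threshold, 0 turned, 3 of Mir122 came past the threshold and 2, those of Mir203 and Mir200c at the common dispersion, fell short of it. With edgeR at that dispersion 4 of 273 genes were called in place of 172, and 1 member in place of 3. That dispersion comes from these same 2 libraries. With at least 50 reads in both libraries, 2 members were detected and 1 of them was called, because fewer genes were tested. With no filter, and TMM factors then from all genes with a read, 5 members were called, Mir122 and Mir141 added. With the factors of the detected genes kept, no filter gave 4, Mir141 added, and Mir122 had a binomial adjusted p of 0.195. The 9 genes held 0.0704% of reads without regard to strand, where reads of overlapping genes leave the total, 0.00763% of all reads when multiply matched reads were in the total, and 0.0575% with the top gene of each library removed. Leaving out each replicate gave shares of 0.0451% and 0.0515% and 7 detected genes each time. It leaves no ratio between libraries. TMM factors from all genes, and no filter with the factors kept, are alternatives added after seeing the data. No paired analysis was possible because there is 1 group. Depth limits Mir205, Mir141 and Mir194-1 most. For Mir194-1 it is not the only limit, because reads of miR-194-5p match Mir194-2 as well and would not be placed at any depth.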
